A study of Oryza sativa with 18 samples.

Results

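The genes that make sucrose in the leaf and load it for export were followed in flag leaves of rice (Oryza sativa) that differ in the phosphate exporter gene OsPHO1;2. The set was chosen by locus and holds 10 genes of the 55986 loci counted. These are the sucrose-phosphate synthases SPS1, SPS2, SPS6, SPS8 and SPS11, the sucrose transporters SUT1, SUT2 and SUT4, the triose phosphate/phosphate translocator TPT and a cytosolic fructose-1,6-bisphosphatase (cytosolic FBPase). No cut on expression was used, but the set was chosen with earlier results of these data known. All 10 genes passed the filter on low counts. The leaves came from paddy-grown plants during grain filling, and their RNA was sequenced from standard Illumina libraries. The 6 groups were the mutant Ospho1;2-Ko1 (Ko1), an overexpression line (OE) and the wild type (WT), each at 15DAF and at 5DAF, with 3 libraries per group. DAF is read here as days after flowering. The sources used here give neither the kind of mutation in Ko1, nor the promoter of OE, nor the parent line of either, so an effect of the line cannot be told apart from one of OsPHO1;2.

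A leaf that fixes carbon exports it from the chloroplast as triose phosphate, which TPT exchanges for inorganic phosphate from the cytosol. In the cytosol aldolase joins triose phosphates, and cytosolic FBPase then removes a phosphate in the first irreversible step towards sucrose. The hexose phosphates feed UDP-glucose pyrophosphorylase and sucrose-phosphate synthase, and sucrose-phosphate phosphatase releases sucrose. Both phosphatase steps free phosphate, which TPT can carry back into the chloroplast. In grasses SUT1 carries sucrose with protons across the plasma membrane for phloem loading. Rice SUT2 is a transporter of the vacuolar membrane that releases stored sucrose, and SUT4 is a further member of the SUT family.

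The positions below are those in the deposited table, whose rice genome build is not given in the sources used here. SPS1 (LOC_Os01g69030) spans 40101404 to 40107186 on chromosome 1, and SPS2 (LOC_Os02g09170) spans 4708493 to 4716880 on chromosome 2. SPS6 (LOC_Os06g43630) lies on chromosome 6 from 26242005 to 26250269. SPS8 (LOC_Os08g20660) lies on chromosome 8 from 12411932 to 12424769, and SPS11 (LOC_Os11g12810) on chromosome 11 from 7255766 to 7263164. The transporters SUT1 (LOC_Os03g07480, chromosome 3, 3797691 to 3804132), SUT2 (LOC_Os12g44380, chromosome 12, 27513939 to 27518251) and SUT4 (LOC_Os02g58080, chromosome 2, 35548813 to 35553460) lie on separate chromosomes. TPT (LOC_Os01g13770) spans 7718189 to 7722451 and cytosolic FBPase (LOC_Os01g64660) spans 37519523 to 37522613, both on chromosome 1. The table describes the TPT locus only as a protein with a DUF250 domain and SUT4 as a transporter of the major facilitator family. Whether reads were counted by strand is not stated, so overlapping antisense transcripts cannot be told apart from these genes.

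Total counts per library lay between 13223554 and 18264909. The altered gene OsPHO1;2 (LOC_Os02g56510) stood at 4.75 to 29.5 CPM (counts scaled to a common library size) in OE and 1.78 to 3.25 CPM in WT at 15DAF. The 5DAF leaves held 5.91 to 9.74 CPM of it in OE, against 1.72 to 3.52 CPM in WT. These OE differences did not pass (edgeR adjusted p = 0.122 at 15DAF and 0.405 at 5DAF), and OE 15DAF replicate 2 lay below every Ko1 15DAF library. In Ko1 OsPHO1;2 stood at 6.07 to 6.14 CPM at 15DAF, above every WT library (log2 1.25, edgeR adjusted p = 0.114). At 5DAF it was 1.10 to 3.38 CPM (log2 -0.05 against WT, edgeR adjusted p = 0.973). It was called lower in Ko1 than in OE at 15DAF (log2 -1.51, edgeR adjusted p = 0.0498) and at 5DAF (log2 -1.76, edgeR adjusted p = 0.0316). The OsPHO1;2 transcript was thus not lost in Ko1. Without the kind of mutation the count does not check that label. Ko1 below therefore stands for the libraries labelled Ko1, and OE for those labelled OE. Over all tested genes the library labelled WT 5DAF replicate 3 had a mean r of 0.960 with the Ko1 5DAF libraries. With the other WT 5DAF libraries it was 0.936. Other libraries at 5DAF also lay nearer another group. WT replicates 1 and 2 had a mean r of 0.968 and 0.956 with OE, against 0.950 and 0.947 with the other WT libraries. Ko1 replicate 1 had 0.956 with WT and 0.952 with the other Ko1 libraries. Results at 5DAF that rest on the library labelled WT 5DAF replicate 3 are given with and without it. The labels do not state whether the 3 libraries of a group are separate plants, so the spread behind each p-value is that between these libraries and may be technical. Leaf markers were abundant in every library, with the small subunit of Rubisco, Rubisco activase and Lhcb3 each at 368 CPM or more. In whole leaves, fewer cells of a type and less RNA per cell cannot be told apart.

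Per gene length, TPT was by far the most abundant of the 10 genes. Its mean level over the 18 libraries was 235 FPKM (fragments scaled by gene length and library size), which placed it 248th among the 20437 genes tested. SPS8 followed at 35.5 FPKM, then cytosolic FBPase at 23.2 FPKM and SUT2 at 21.9 FPKM. The other genes had mean levels between 16.7 FPKM for SPS6 and 8.24 FPKM for SUT1. Between groups the genes differed in how far they moved. On the CPM scale the mean of the highest group was 13.9 times that of the lowest for SPS11, 4.16 times for SUT2 and 3.26 times for SPS1. It was 1.19 times for SPS6, 1.47 times for SPS2 and 1.51 times for SUT1.

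**Figure D1:**
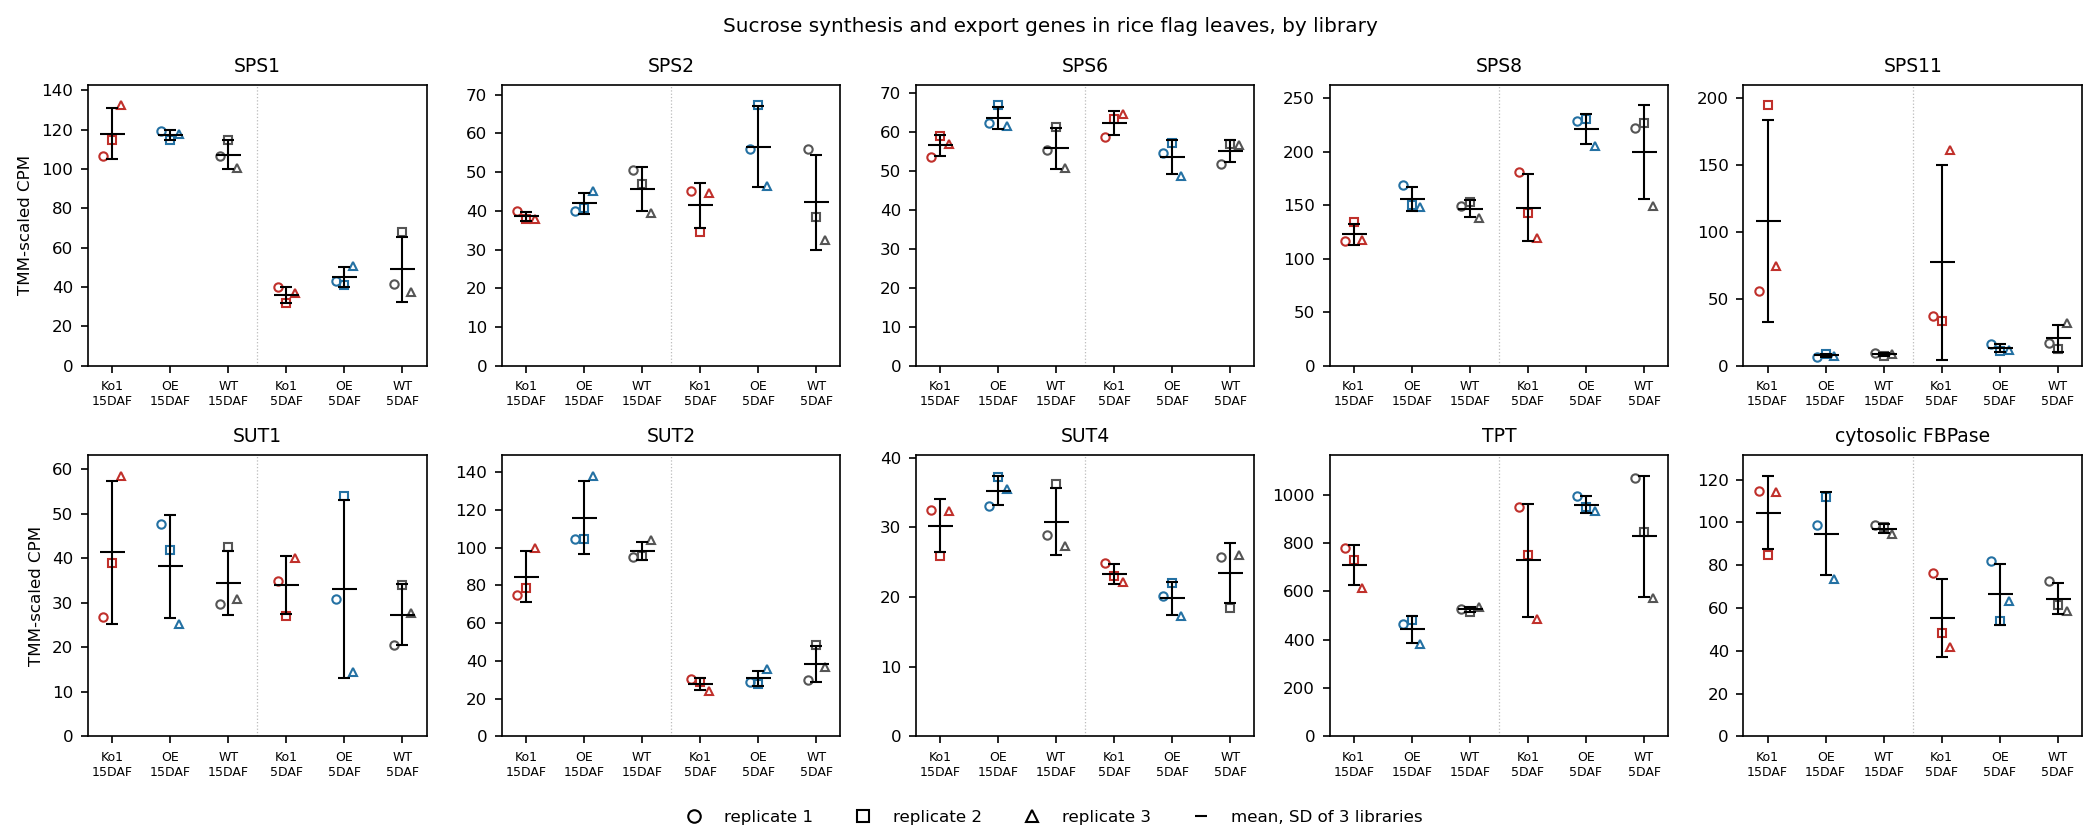
CPM, scaled by TMM between libraries, of the 10 genes in each of the 18 libraries of Ko1, OE and WT leaves at 15DAF and 5DAF, with the mean and SD of 3 libraries. SPS11 is highest in the Ko1 libraries at both stages, up to 194 CPM at 15DAF, while SPS1 and SUT2 separate 15DAF from 5DAF in every genotype.

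Of the 10 genes, SPS11 alone passed the test in Ko1 leaves against WT at 15DAF. SPS11 had 55.8, 194 and 74.2 CPM in Ko1 leaves, against 9.41, 7.48 and 8.73 CPM in WT leaves. Every Ko1 library lay above every WT library, and replicate 2 stood far above the other Ko1 libraries. The fitted difference was 3.66 on the log2 scale (SE 0.582, 95% interval 2.43 to 4.89, edgeR adjusted p = 0.001), or 12.6-fold. This was 1 gene of 10, where 11% of all genes tested were called in either direction and 6.53% were higher. Without Ko1 15DAF replicate 2 the log2 difference was 2.93 (edgeR adjusted p = 0.00377), and the call held under each of the 12 alternatives tried.

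None of the other synthases passed for Ko1 against WT at 15DAF. SPS8, the synthase with the highest level in WT leaves, had 116, 134 and 118 CPM in Ko1 and 149, 153 and 138 CPM in WT. The Ko1 libraries all lay below the WT libraries, but the log2 difference of -0.26 (95% interval -0.62 to 0.10) did not pass (edgeR adjusted p = 0.334). SPS1 had 107, 115 and 132 CPM in Ko1 and 107, 115 and 101 CPM in WT, and the groups overlapped (log2 0.14, 95% interval -0.24 to 0.51). SPS2 differed by -0.24 (95% interval -0.63 to 0.15) and SPS6 by 0.02 (95% interval -0.22 to 0.26) on the log2 scale, with overlapping groups for both.

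The share of each synthase in their summed FPKM was taken, which depends on the gene lengths used for FPKM. Those lengths, as implied by counts and FPKM, ran from 3490 bases for SPS6 to 5328 bases for SPS1, and their source is not given. By CPM, which uses no length, SPS1 held 28.7%, 30.0% and 29.8% in the WT libraries at 15DAF, against 24.6%, 25.6% and 25.5% by FPKM. SPS6 held 14.9%, 16.0% and 15.0% there by CPM, against 19.5%, 20.9% and 19.7% by FPKM. SPS11 made up 17.5%, 40.4% and 20.7% of the summed synthase FPKM in the Ko1 libraries at 15DAF, against 3.04%, 2.33% and 3.10% in the WT libraries. The Ko1 shares averaged 26.2% ± 12.4 and the WT shares 2.82% ± 0.426 (SD, n = 3 each), with 2.41% ± 0.423 in OE (SD, n = 3). The sum over the 5 synthases was 88.0, 129 and 97.9 FPKM in Ko1 and 83.9, 86.8 and 74.7 FPKM in WT. All Ko1 sums thus lay above the WT sums in FPKM, the nearest by 88.0 against 86.8. FPKM lacks the TMM scaling between libraries, and CPM lacks the scaling by gene length. Sums of TMM-scaled CPM, which differ from the FPKM sums in both respects, overlapped between Ko1 and WT. The share of SPS8 was 26.7% ± 3.59 in Ko1 and 39.8% ± 0.520 in WT at that stage (SD, n = 3 each). In the Ko1 libraries at 15DAF SPS8 held 30.1%, 22.9% and 27.1%, so SPS11 exceeded SPS8 in replicate 2 alone. In WT at that stage SPS11 had the smallest mean share of the 5 synthases. No test was made of the shares.

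**Figure D2:**
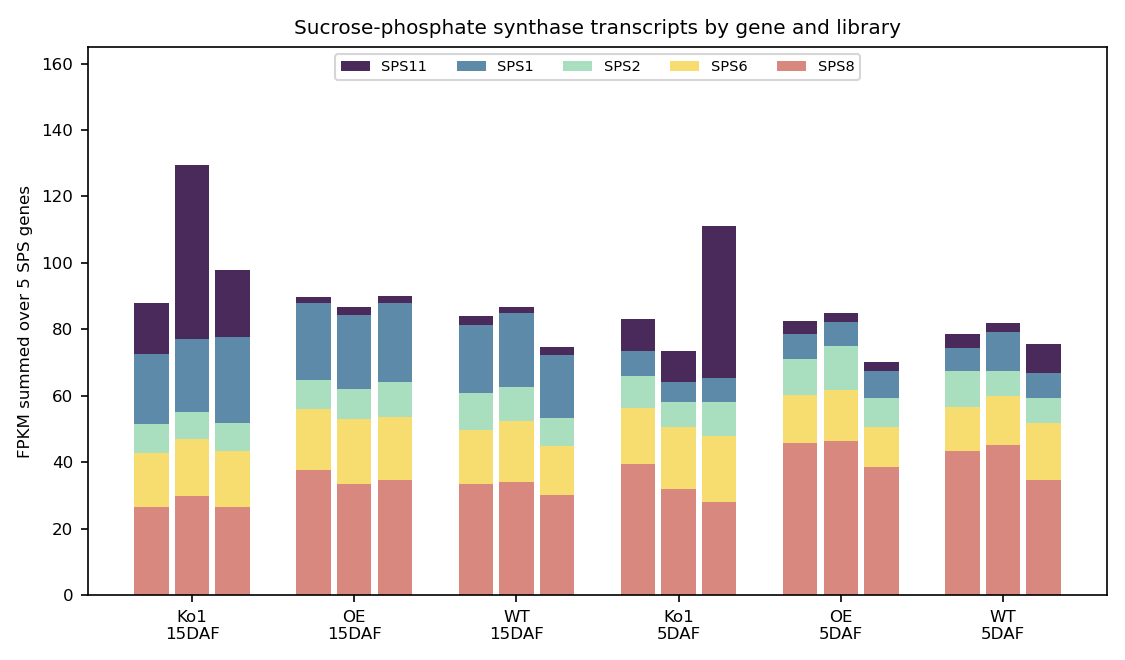
FPKM of the 5 sucrose-phosphate synthase genes, stacked, in each library of Ko1, OE and WT leaves at 15DAF and 5DAF, with replicates 1 to 3 from left to right in each group. The SPS11 segment takes 40.4% of the bar of Ko1 replicate 2 at 15DAF and 41.0% of that of Ko1 replicate 3 at 5DAF, against 2.33% to 3.10% in WT at 15DAF.

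Export and the entry of carbon into the route showed no called gene in Ko1 against WT at 15DAF. TPT had 778, 731 and 616 CPM in Ko1 and 526, 516 and 536 CPM in WT. All Ko1 libraries lay above all WT libraries, but the log2 difference of 0.43 (95% interval -0.06 to 0.92) did not pass (edgeR adjusted p = 0.229). Cytosolic FBPase had 115, 84.7 and 114 CPM in Ko1 and 98.6, 97.9 and 94.7 CPM in WT, with overlapping groups and a log2 difference of 0.11 (95% interval -0.35 to 0.56). SUT1 ranged from 26.7 to 58.5 CPM in Ko1 and from 29.6 to 42.6 CPM in WT (log2 0.27, 95% interval -0.52 to 1.06). SUT2 differed by -0.22 (95% interval -0.59 to 0.16) and SUT4 by -0.03 (95% interval -0.37 to 0.32) on the log2 scale, and the groups of both overlapped. In all, the groups of 3 of the 10 genes did not overlap (SPS11 and TPT higher, SPS8 lower), against 37.7% of all genes tested. The median log2 difference was 0.06 over the 10 genes and 0.01 over all genes tested.

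Several neighbouring enzymes of the cytosolic route were higher in Ko1 at 15DAF. Of 15 tested genes for the enzymes between triose phosphate and sucrose outside the set, 7 were higher in Ko1 than in WT and none was lower, where 6.53% of all genes tested were higher and 4.43% lower. The median log2 difference of the 15 was 0.80, against 0.01 over all genes tested. Like the set, this list was chosen with earlier results of these data known. SPP1 (LOC_Os01g27880), a sucrose-phosphate phosphatase that takes the product of the synthases, had 185, 203 and 351 CPM in Ko1, against 34.8, 33.3 and 28.4 CPM in WT. Every Ko1 library was more than 5 times any WT library (log2 2.94, SE 0.227, edgeR adjusted p = 1.13e-06). UGP1, the UDP-glucose pyrophosphorylase that supplies the synthases, had 779, 847 and 1308 CPM in Ko1 and 421, 417 and 392 CPM in WT (log2 1.25, edgeR adjusted p = 0.000657). Cytosolic phosphoglucomutase (PGM) had 464, 472 and 614 CPM in Ko1 and 226, 227 and 218 CPM in WT (log2 1.21, edgeR adjusted p = 8.39e-05). For both enzymes the Ko1 libraries lay apart from the WT libraries. The fourth largest difference among the called genes was that of an aldolase (LOC_Os01g67860), at 1.20 on the log2 scale (edgeR adjusted p = 0.00945). The other 3 called genes, all chosen after their values were seen, were an aldolase (LOC_Os06g40640, log2 0.97), cytosolic triosephosphate isomerase (TPI, log2 0.84) and the beta subunit of pyrophosphate-dependent phosphofructokinase (PFP beta, log2 0.80), with edgeR adjusted p between 0.0028 and 0.00977. The call on aldolase LOC_Os06g40640 was lost without WT 15DAF replicate 2 (edgeR adjusted p = 0.055). SPP2, the other well-expressed phosphatase gene, differed by 0.28 on the log2 scale and did not pass (edgeR adjusted p = 0.196).

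**Figure D3:**
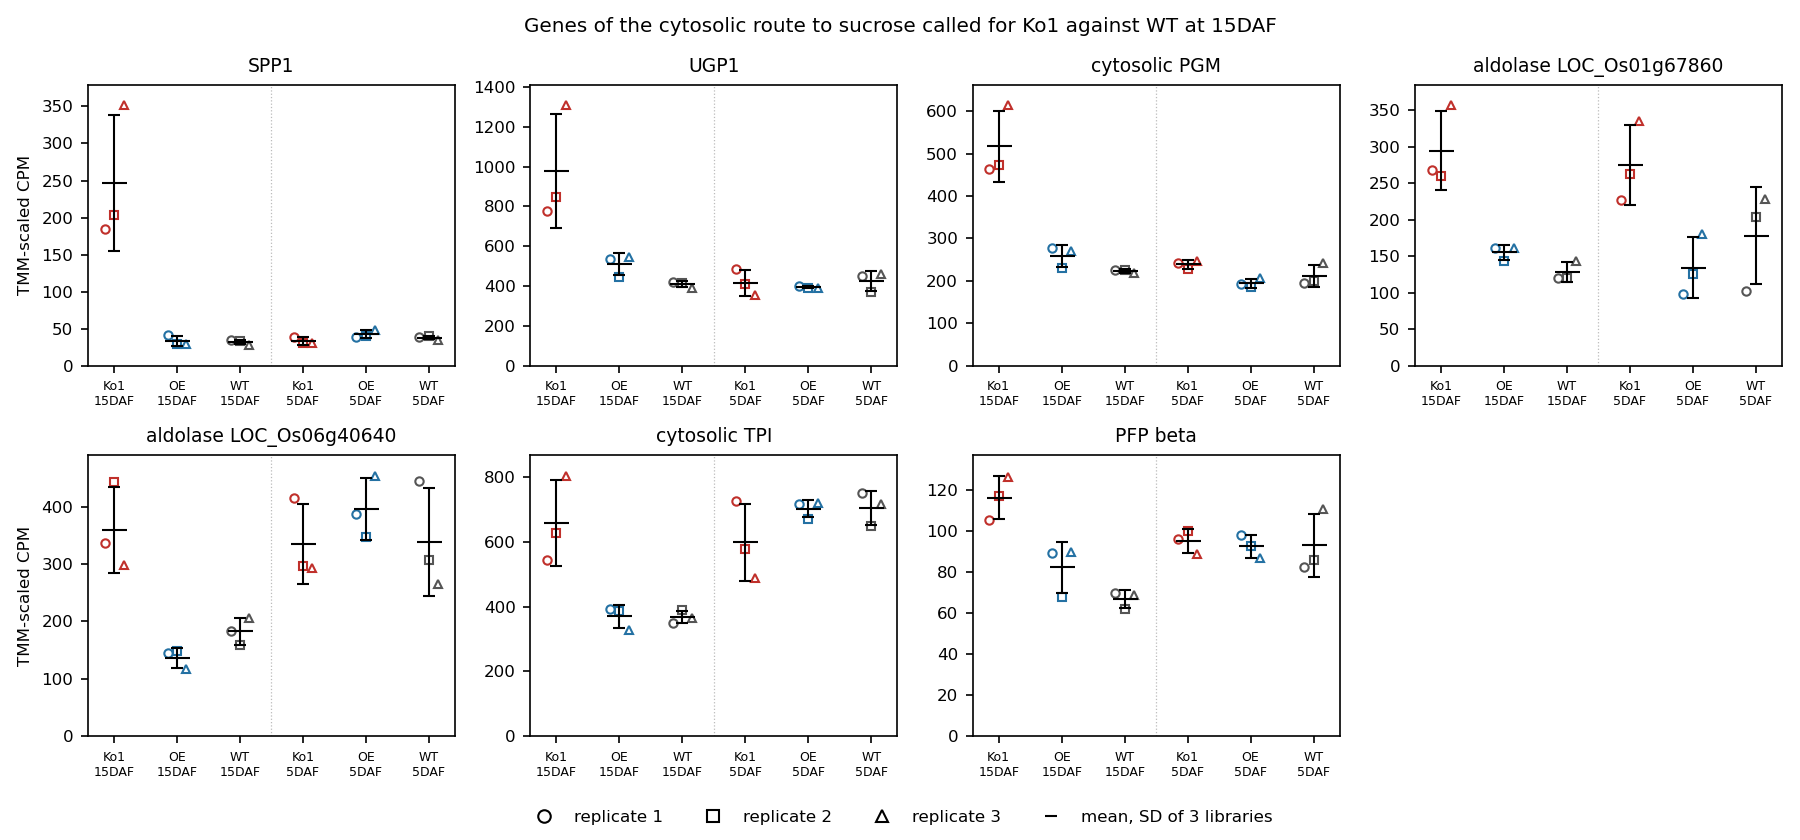
TMM-scaled CPM of the 7 genes of the cytosolic route called for Ko1 against WT at 15DAF, in each library, with the mean and SD of 3 libraries. SPP1 lies between 185 and 351 CPM in the Ko1 libraries at 15DAF and at 48.4 CPM or less in every other library.

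At 5DAF SPS11 again had its highest levels in Ko1, but no gene of the set passed the test against WT. SPS11 had 37.0, 33.6 and 161 CPM in Ko1 leaves, against 17.3, 12.3 and 31.9 CPM in WT leaves. The groups did not overlap, with replicate 3 standing above the other Ko1 libraries and the library labelled WT replicate 3 just below the lowest Ko1 library. The log2 difference was 1.91 (SE 0.539, 95% interval 0.77 to 3.04, edgeR adjusted p = 0.127). With the library labelled WT 5DAF replicate 3 left out it was 2.38 and passed (edgeR adjusted p = 0.0199), and without Ko1 5DAF replicate 3 it was 0.79 (edgeR adjusted p = 0.587). DESeq2 called SPS11 alone (adjusted p = 0.0447). In edgeR 0.0147% of all genes tested were called at this stage. Of the 10 genes 4 had an unadjusted p under 0.05, as did 3965 of the 20437 genes tested. The Ko1 and WT groups did not overlap for 2 of the 10 genes (SPS6 and SPS11, both higher), against 14.5% of all genes tested.

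SPS8 had 181, 142 and 120 CPM in Ko1 and 222, 227 and 149 CPM in WT at 5DAF. The lowest WT value was that of the library labelled replicate 3. The log2 difference of SPS8 was -0.43 (edgeR adjusted p = 0.192) with all libraries. SPS1 had 39.9, 31.9 and 36.8 CPM in Ko1 and 41.5, 67.9 and 37.5 CPM in WT (log2 -0.44, edgeR adjusted p = 0.211). When the library labelled WT 5DAF replicate 3 was left out, both passed as lower in Ko1, where 14% of all genes tested were called. SPS8 was then at -0.60 (edgeR adjusted p = 0.02) and SPS1 at -0.60 (edgeR adjusted p = 0.0378). Neither passed in any other leave-one-out fit. With all libraries the 4 leaf markers were also lower in Ko1 (median log2 -0.74). By edgeR 0 of them passed, and 2 had an unadjusted p under 0.05, as did 3965 of the 20437 genes tested. They summed to 2767 to 5002 CPM in Ko1 and 3273 to 7713 CPM in WT. Their part in the differences of SPS8 and SPS1 was not tested. SUT2 had 30.3, 28.9 and 24.1 CPM in Ko1 and 29.8, 48.5 and 36.9 CPM in WT (log2 -0.47, edgeR adjusted p = 0.189), and the groups overlapped. TPT ranged from 484 to 948 CPM in Ko1 and from 571 to 1070 CPM in WT, a spread within each group that exceeded the log2 difference of -0.19 (95% interval -0.67 to 0.30). The log2 differences of SPS2, SPS6, SUT1, SUT4 and cytosolic FBPase lay between -0.22 and 0.31 with edgeR adjusted p of 0.401 or more. The median log2 difference of the 10 genes was -0.11, against -0.003 over all genes tested.

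Of the 15 route genes 0 passed for Ko1 against WT at 5DAF by edgeR or DESeq2. An unadjusted p under 0.05 was seen for 3 of them and for 3965 of the 20437 genes tested. SPP1 had 39.2, 30.4 and 30.3 CPM in Ko1 and 38.6, 40.0 and 35.5 CPM in WT at that stage, with overlapping groups (log2 -0.19, edgeR adjusted p = 0.643). UGP1 had 486, 412 and 355 CPM in Ko1 and 449, 370 and 459 CPM in WT (log2 -0.03), and the groups overlapped too. SPS11 lay above WT in every Ko1 library at both stages, at 5DAF by as little as 33.6 against 31.9 CPM, and SPP1 did so at 15DAF. The genes were not tested against each other.

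No gene of the set passed for OE against WT at either stage by edgeR or by DESeq2. At 15DAF 0.0245% of all genes tested were called. Of the 10 genes 0 had an unadjusted p under 0.05, against 646 of the 20437 genes tested. At 5DAF 0.0391% of all genes tested were called. Of the 10 genes 1 had an unadjusted p under 0.05, as did 1470 of the 20437 genes tested. It was SPS2, with 56.1, 67.3 and 46.4 CPM in OE and 55.9, 38.3 and 32.5 CPM in WT (log2 0.42, edgeR adjusted p = 0.65). SPS11 had 6.61, 9.11 and 7.60 CPM in OE and 9.41, 7.48 and 8.73 CPM in WT at 15DAF, with a log2 difference of -0.14 (95% interval -1.31 to 1.04). The groups overlapped, and the interval is wide enough to hold more than a doubling or halving of SPS11. At 5DAF it had 16.4, 10.9 and 11.8 CPM in OE and 17.3, 12.3 and 31.9 CPM in WT (log2 -0.66, 95% interval -1.80 to 0.48). Without the library labelled WT 5DAF replicate 3 the log2 difference was -0.19. TPT had 466, 480 and 381 CPM in OE and 526, 516 and 536 CPM in WT at 15DAF, so the OE libraries lay below the WT libraries, by -0.25 on the log2 scale (95% interval -0.74 to 0.24). SUT2 had 105, 105 and 138 CPM in OE and 95.1, 95.5 and 104 CPM in WT, all OE libraries above all WT libraries (log2 0.24, 95% interval -0.14 to 0.61). With SPS6 these were 3 of 10 genes without overlap at 15DAF, against 15.3% of all genes tested. At 5DAF the groups of all 10 genes overlapped, while those of 8.92% of all genes tested did not. Of the 15 route genes 0 passed in OE at either stage by edgeR or DESeq2, 0 had an unadjusted p under 0.05, and the median log2 difference was 0.25 at 15DAF and -0.008 at 5DAF.

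**Figure D4:**
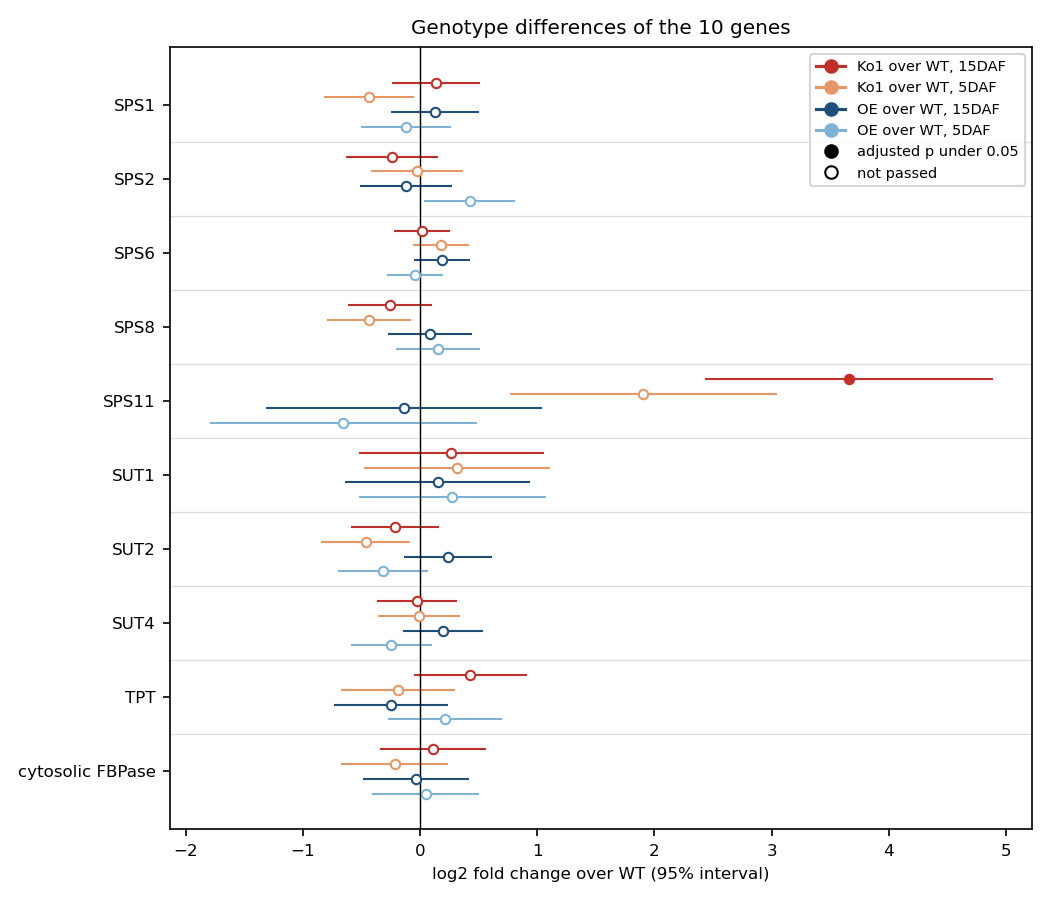
Log2 fold changes of the 10 genes for Ko1 over WT and OE over WT at 15DAF and 5DAF, with 95% intervals and filled points where the edgeR adjusted p was under 0.05. SPS11 in Ko1 at 15DAF, at 3.66, is the only filled point.

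Set against OE, the Ko1 leaves had higher SPS11 at both stages and lower SPS8 at 5DAF. These comparisons share the Ko1 libraries with those against WT and are not a repeat of them. At 15DAF SPS11 was higher by 3.80 on the log2 scale (95% interval 2.56 to 5.03, edgeR adjusted p = 0.000674), the only one of the 10 genes called, where 13.3% of all genes tested were. Without Ko1 15DAF replicate 2 the difference was 3.06 (edgeR adjusted p = 0.00211). TPT had 778, 731 and 616 CPM in Ko1 and 466, 480 and 381 CPM in OE, without overlap. Its log2 difference of 0.68 (95% interval 0.19 to 1.17) did not pass by edgeR (adjusted p = 0.0602) and passed by DESeq2 (adjusted p = 0.019). That difference passed in 0 of 6 leave-one-out fits. SUT2 had 75.0, 78.6 and 100 CPM in Ko1 and 105, 105 and 138 CPM in OE (log2 -0.45, edgeR adjusted p = 0.101), with every Ko1 library below every OE library. The groups did not overlap for 7 of the 10 genes (SPS11 and TPT higher, SPS2, SPS6, SPS8, SUT2 and SUT4 lower), against 36.8% of all genes tested. Of the 15 route genes 8 were higher in Ko1 and 0 lower, led by SPP1 (log2 2.87), aldolase LOC_Os06g40640 (1.39), PGM (0.99) and UGP1 (0.94), each with an edgeR adjusted p of 0.00427 or less. Without any 1 library of this comparison, between 5 and 7 of the 15 passed.

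At 5DAF SPS11 had 37.0, 33.6 and 161 CPM in Ko1 and 16.4, 10.9 and 11.8 CPM in OE, and all Ko1 libraries lay above all OE libraries. The log2 difference was 2.56 (95% interval 1.39 to 3.74, edgeR adjusted p = 0.0136). It did not pass without Ko1 5DAF replicate 3 (1.44, edgeR adjusted p = 0.0845) or without OE 5DAF replicate 3 (2.49, edgeR adjusted p = 0.056). SPS8 was lower, with 181, 142 and 120 CPM in Ko1 and 228, 231 and 205 CPM in OE, without overlap (log2 -0.58, 95% interval -0.94 to -0.22, edgeR adjusted p = 0.0314). That call rested on every library but Ko1 5DAF replicate 1, since leaving out any other of the 6 gave an edgeR adjusted p between 0.0667 and 0.161. These were 2 of 10 genes, against 16.3% of all genes tested, and 6 of 10 did not overlap, against 37.8% of all genes tested. Of the 15 route genes 1 was higher, aldolase LOC_Os01g67860 (log2 1.03, edgeR adjusted p = 0.0197), and its call was lost without Ko1 5DAF replicate 3, OE 5DAF replicate 1 or OE 5DAF replicate 2. In this comparison 2 of the 4 leaf markers were also lower in Ko1, Rubisco activase (log2 -1.47) and Lhcb3 (log2 -1.13), with edgeR adjusted p of 0.019 and 0.0302, and each call was lost in 3 or more of the 6 leave-one-out fits. The 4 leaf markers summed to 2767 to 5002 CPM in Ko1 and 7162 to 9089 CPM in OE, and their part in the SPS8 difference was not tested.

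Between stages SPS1 and SUT2 were the genes that changed in every genotype, and both rose. SPS1 had 107, 115 and 132 CPM at 15DAF, against 39.9, 31.9 and 36.8 CPM at 5DAF in Ko1, a log2 difference of 1.70 (edgeR adjusted p = 6.83e-06). In OE it had 119, 115 and 118 CPM at 15DAF, against 43.0, 41.3 and 50.8 CPM at 5DAF (log2 1.38, edgeR adjusted p = 3.19e-05). In WT it had 107, 115 and 101 CPM at 15DAF, against 41.5, 67.9 and 37.5 CPM at 5DAF (log2 1.13, edgeR adjusted p = 0.000422). The stages did not overlap in any genotype, and the smallest gap was in WT, where replicate 2 at 5DAF was high. With this rise the share of SPS1 in the summed synthase FPKM was 22.4% ± 4.87 in Ko1, 25.9% ± 0.525 in OE and 25.2% ± 0.588 in WT at 15DAF, against 8.05% ± 1.21 in Ko1, 9.76% ± 1.76 in OE and 11.0% ± 2.80 in WT at 5DAF (SD, n = 3 each).

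SUT2 had 75.0, 78.6 and 100 CPM at 15DAF, against 30.3, 28.9 and 24.1 CPM at 5DAF in Ko1 (log2 1.61, edgeR adjusted p = 1.14e-05). In OE it had 105, 105 and 138 CPM at 15DAF, against 29.0, 27.8 and 35.5 CPM at 5DAF (log2 1.91, edgeR adjusted p = 1.83e-06). In WT it had 95.1, 95.5 and 104 CPM at 15DAF, against 29.8, 48.5 and 36.9 CPM at 5DAF (log2 1.36, edgeR adjusted p = 9.48e-05). Every library at 15DAF stood above every library at 5DAF, and the calls on SUT2 and SPS1 held in all leave-one-out fits of the 3 genotypes. SUT4 had 33.0, 37.2 and 35.6 CPM at 15DAF, against 20.1, 22.0 and 17.3 CPM at 5DAF in OE, where it rose (log2 0.83, edgeR adjusted p = 0.00116). In Ko1 and WT the stages of SUT4 did not overlap either, with log2 differences of 0.38 and 0.39 that did not pass (edgeR adjusted p = 0.123 and 0.115). SUT1 did not pass in any genotype, with log2 differences between 0.21 and 0.33 and 95% intervals that lay between -0.59 and 1.12.

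Cytosolic FBPase had 115, 84.7 and 114 CPM at 15DAF, against 76.2, 48.1 and 41.8 CPM at 5DAF in Ko1 and rose there (log2 0.92, edgeR adjusted p = 0.00599). Its differences of 0.51 in OE and 0.60 in WT did not pass by edgeR (adjusted p = 0.0929 and 0.0695). The difference in WT passed by DESeq2 (adjusted p = 0.045) and in 0 of 6 leave-one-out fits. That in OE passed in 1 of 6, without OE 5DAF replicate 1 (edgeR adjusted p = 0.0487). The other fits in OE gave an edgeR adjusted p of up to 0.299. TPT fell in OE, with 466, 480 and 381 CPM at 15DAF, against 997, 949 and 932 CPM at 5DAF (log2 -1.12, edgeR adjusted p = 0.00172). In WT the stages of TPT did not overlap, at 526, 516 and 536 CPM against 1070, 844 and 571 CPM, and the log2 difference of -0.66 did not pass (edgeR adjusted p = 0.061). It was -0.86 and passed once the library labelled WT 5DAF replicate 3 was left out (edgeR adjusted p = 0.0128). This was 1 of 6 leave-one-out fits, and the others gave an edgeR adjusted p of up to 0.244. In Ko1 TPT had overlapping stages and a log2 difference of -0.04 (95% interval -0.52 to 0.45). SPS8 fell in OE with 169, 150 and 148 CPM at 15DAF, against 228, 231 and 205 CPM at 5DAF (log2 -0.51, edgeR adjusted p = 0.0345). That call held in 1 of the 6 leave-one-out fits, with edgeR adjusted p of up to 0.109, and the log2 differences in Ko1 (-0.27) and WT (-0.44) did not pass. In WT it was -0.62 and passed once the library labelled WT 5DAF replicate 3 was left out (edgeR adjusted p = 0.0136). No other leave-one-out fit of SPS8 in WT passed, with edgeR adjusted p of up to 0.216. In OE 3 of the 4 leaf markers were also lower at 15DAF, where 13.6% of all genes tested were lower. The median log2 difference of the 4 was -1.17. They summed to 3253 to 4665 CPM at 15DAF and 7162 to 9089 CPM at 5DAF in OE. Their part in the differences of TPT and SPS8 was not tested. SPS2 in OE had 40.0, 40.9 and 45.1 CPM at 15DAF, against 56.1, 67.3 and 46.4 CPM at 5DAF (log2 -0.43, edgeR adjusted p = 0.0982). It passed in 1 of 6 leave-one-out fits, without OE 5DAF replicate 3 (edgeR adjusted p = 0.0478). The other fits gave an edgeR adjusted p of up to 0.339.

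The counts of genes that passed between stages were 3 higher in Ko1, where 20.1% of all genes tested were called, 3 higher and 2 lower in OE, where 26.7% were called, and 2 higher in WT, where 16.7% were called. The stages did not overlap for 4 of the 10 genes in Ko1, against 33.1% of all genes tested. They did not overlap for 8 of 10 in OE, against 47% of all genes tested, and for 6 of 10 in WT, against 34.3%. SPS11 overlapped between stages in Ko1 (log2 0.49, edgeR adjusted p = 0.575). Without Ko1 5DAF replicate 3 the difference was 1.61 and passed (edgeR adjusted p = 0.02). No other leave-one-out fit in Ko1 passed, with edgeR adjusted p of up to 0.907. In OE and WT SPS11 was lower at 15DAF in every library without passing, by -0.75 and -1.27 on the log2 scale (edgeR adjusted p = 0.354 and 0.131). Both passed when only those groups were fitted (edgeR adjusted p = 0.0293 and 0.0413), and each in 0 of 6 leave-one-out fits. Of the route genes in WT, 0 of 15 were higher at 15DAF and 5 were lower. The 4 with the largest differences were those for the bifunctional enzyme of fructose 2,6-bisphosphate (F2KP, log2 -1.01), TPI (-0.94), aldolase LOC_Os06g40640 (-0.89) and SPP2 (-0.50), and 3 of 15 passed without WT 15DAF replicate 1 and 2 of 15 without WT 15DAF replicate 2. In OE 1 of 15 was higher, PGM (log2 0.42, lost in 5 of 6 leave-one-out fits), and 3 were lower, F2KP (-1.55), aldolase LOC_Os06g40640 (-1.53) and TPI (-0.93). In Ko1 4 of 15 were higher and 0 lower, namely SPP1 (log2 2.89), UGP1 (1.23), PGM (1.11) and the glucose-6-phosphate isomerase PGIb (0.79, lost in 4 of 6 leave-one-out fits).

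**Figure D5:**
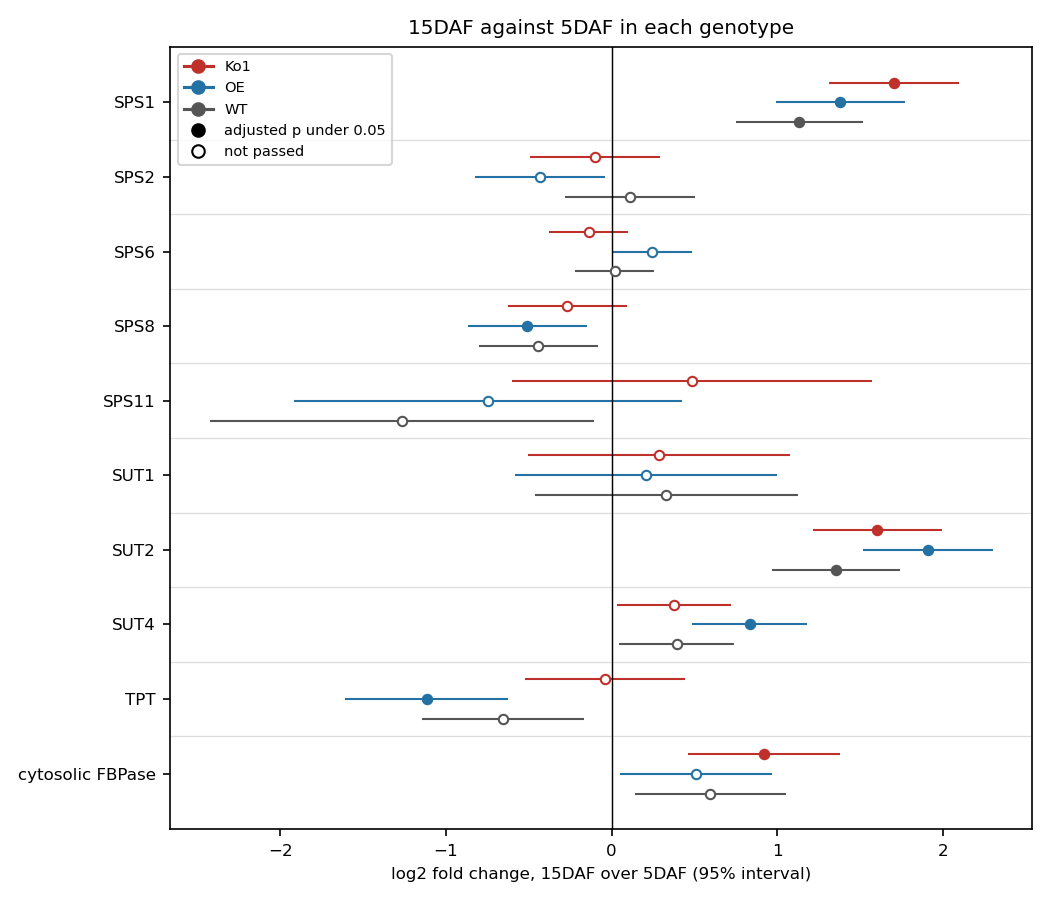
Log2 fold changes of the 10 genes between 15DAF and 5DAF in Ko1, OE and WT, with 95% intervals and filled points where the edgeR adjusted p was under 0.05. SPS1 and SUT2 have filled points in all 3 genotypes, between 1.13 and 1.91, while TPT runs from -0.04 in Ko1 to -1.12 in OE.

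Whether a genotype effect differed between the stages was tested directly. None of the 10 genes passed for Ko1 or for OE by edgeR or by DESeq2, where 0.553% and 0% of all genes tested passed in edgeR. For Ko1, 2 of the 10 had an unadjusted p under 0.05, as did 1710 of the 20437 genes tested. They were SPS11 with a change of 1.75 on the log2 scale (95% interval 0.17 to 3.34, edgeR adjusted p = 0.518) and SPS1 with 0.57 (95% interval 0.03 to 1.11, edgeR adjusted p = 0.553). For OE, 1 of the 10 had an unadjusted p under 0.05, as did 1226 of the 20437 genes tested. It was SUT2, with 0.56 (edgeR adjusted p = 0.824). The change for TPT was 0.62 in Ko1 (95% interval -0.07 to 1.30) and -0.46 in OE (95% interval -1.15 to 0.23). Of the 15 route genes 3 passed for Ko1, all with a larger effect at 15DAF, namely SPP1, UGP1 and PGM.

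The profiles of the genes of the set across the 18 libraries were compared in pairs. The likeness of a pair was measured as the root mean square difference of their log2 CPM, each centred on its own mean, so that a smaller value means a closer profile. The closest pair within the set was SPS1 and SUT2, at 0.24 log2 units, followed by SPS2 and SPS8 at 0.27. SPS11 was farthest from SUT2, at 1.92. Among 14313 other genes with a description, the profile closest to SPS1 was that of an aldehyde dehydrogenase (LOC_Os08g34210), at 0.18, followed by an IN2-1 protein (LOC_Os03g17470) at 0.19. The IN2-1 protein was also the second closest to SUT2, at 0.20, after a CAMK protein kinase of the SNF1 type (LOC_Os07g48100) at 0.16. The measure grows with how far a gene itself varies, which was 1.48 log2 units about its mean for SPS11 and 0.33 for SPS8. The nearest to SPS11 were a transporter family protein (LOC_Os12g32940) at 0.39 and a TCP transcription factor (LOC_Os08g43160) at 0.42. SPS8 was closest to a tm-1GCR237 protein (LOC_Os06g27800) and an oxidoreductase (LOC_Os03g64400), both at 0.12. SUT4 was closest to a chromatin-remodelling ATPase (LOC_Os01g27040) at 0.12 and a copine (LOC_Os02g32160) at 0.13. The nearest profiles to TPT were a START domain protein (LOC_Os02g26860) at 0.18 and a C2H2 zinc finger protein (LOC_Os06g07020) at 0.19. Those nearest to cytosolic FBPase were a SHOOT1 protein (LOC_Os07g07540) and a thylakoid lumenal protein (LOC_Os02g42960), both at 0.17. These values describe the same libraries and carry no test.

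Of the 7 other sucrose transporter genes listed, SUT3, SUT5, SWEET11 and SWEET12 stood at 0.207 CPM or less in every library and were not tested. SWEET13 had a mean level of 7.64 FPKM, near that of SUT1 at 8.24 FPKM. Of the 3 tested SWEET genes, which encode sugar uniporters, 0 passed by edgeR or DESeq2 for Ko1 or OE against WT at either stage or between stages, with 0 to 2 at an unadjusted p under 0.05 in each comparison. Over these comparisons 646 to 7687 of the 20437 genes tested had such a p. SWEET13 had 26.4, 23.1 and 33.2 CPM in Ko1, against 9.71, 10.2 and 10.2 CPM in OE at 15DAF (log2 1.46, edgeR adjusted p = 0.044), a call lost in each of the 6 leave-one-out fits. Against WT, with 7.27, 12.4 and 16.9 CPM, its log2 difference was 1.18 (edgeR adjusted p = 0.098), and the Ko1 libraries lay above those of WT.

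Among 7 tested genes for sucrose cleavage 1 was higher and 0 lower in Ko1 against WT at 15DAF, a share near the 11% of all genes called, with a median log2 difference of 0.23. It was the vacuolar invertase VIN2, with 25.6, 25.1 and 21.7 CPM in Ko1 and 6.20, 5.92 and 5.86 CPM in WT (log2 2.01, edgeR adjusted p = 0.00296). VIN2 was also higher than in OE at 15DAF (log2 2.16, edgeR adjusted p = 0.00143), where 13.3% of all genes tested were called. At 5DAF 0 of the 7 passed against WT by edgeR or DESeq2. An unadjusted p under 0.05 was seen for 0 of them, against 3965 of the 20437 genes tested. VIN2 had 28.4, 25.3 and 25.1 CPM in Ko1 and 8.97, 15.2 and 37.8 CPM in WT at that stage. The highest WT value was that of the library labelled replicate 3. Against OE at 5DAF 16.3% of all genes tested were called. VIN2 was higher there in Ko1 (log2 1.43, edgeR adjusted p = 0.0185) and the cell wall invertase CIN4 lower (log2 -0.65, edgeR adjusted p = 0.0406). Both calls were lost in 3 or more of the 6 leave-one-out fits. None of the 7 passed in OE against WT at either stage by edgeR or DESeq2, with 1 at an unadjusted p under 0.05 at each. Of the 20437 genes tested 646 at 15DAF and 1470 at 5DAF had such a p. Between stages the cell wall invertase CIN1 was higher at 15DAF in Ko1 (log2 0.62, edgeR adjusted p = 0.00866) and OE (log2 0.46, edgeR adjusted p = 0.0359). CIN4 was lower at 15DAF in OE (log2 -0.61, edgeR adjusted p = 0.0372). In WT VIN2 (log2 -1.79, edgeR adjusted p = 0.00274) and the sucrose synthase SUS2 (log2 -0.56, edgeR adjusted p = 0.0463) were lower. Leave-one-out fits kept CIN1 in OE in 1 of 6, CIN4 in 2 of 6 and SUS2 in 1 of 6. Of all genes tested 20.1% were called in Ko1, 26.7% in OE and 16.7% in WT. Without the library labelled replicate 3 at 5DAF the VIN2 difference in WT was -1.01 (edgeR adjusted p = 0.0105).

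Genes known from starch and protein storage in the grain were looked at as markers of another tissue. GluB1, a seed storage glutelin, stood at 2.00 CPM or less and GBSSI, the granule-bound starch synthase of the endosperm, at 3.37 CPM or less in every library. Other listed genes were not all as low. The mean over the 18 libraries was 12.1 CPM for GluA2, another glutelin, and 40.6 CPM for AGPL2, a subunit of ADP-glucose pyrophosphorylase. It was 164 CPM for AGPS2, 4.97 CPM for BEIIb and 1.30 CPM for RPBF, a Dof zinc finger factor. Of 6 tested grain markers 2 were higher in Ko1 than in WT at 15DAF, the starch branching enzyme BEIIb (log2 1.66, edgeR adjusted p = 0.00585) and the ADP-glucose pyrophosphorylase subunit AGPS2 (log2 1.12, edgeR adjusted p = 7.36e-05), where 11% of all genes tested were called. Over all genes tested 7.69% were higher in Ko1 than in OE at 15DAF and 8.41% at 5DAF. Among the grain markers 2 of 6 were higher in Ko1 than in OE at each stage. They were BEIIb (log2 1.36) and AGPS2 (1.09) at 15DAF and BEIIb (1.51) and GluA2 (0.60) at 5DAF. The edgeR adjusted p of these 4 differences lay between 8.63e-05 and 0.029, and leave-one-out fits lost the GluA2 call in 5 of 6 and the BEIIb call in 1 of 6 at 15DAF and 2 of 6 at 5DAF. The 7 markers summed to 342 to 437 CPM in Ko1, 199 to 205 CPM in OE and 182 to 204 CPM in WT at 15DAF, mostly from AGPS2, which leaves also express. At 5DAF they summed to 187 to 212 CPM in Ko1, 177 to 194 CPM in OE and 167 to 187 CPM in WT. Between stages 1 of 6 was higher at 15DAF in WT, RPBF (log2 2.45, edgeR adjusted p = 0.0175). That call held in 3 of 6 leave-one-out fits. In Ko1 1 of 6 was higher, AGPS2 (log2 1.10, edgeR adjusted p = 1.57e-05), and in OE 0 passed. Of all genes tested 16.7% were called in WT, 20.1% in Ko1 and 26.7% in OE. Of the 4 leaf markers 0 passed for Ko1 against WT at 15DAF by edgeR or DESeq2. An unadjusted p under 0.05 was seen for 0 of them, against 5888 of the 20437 genes tested. Their median log2 difference was -0.37, with sums of 2584 to 5066 CPM in Ko1 and 4689 to 5282 CPM in WT. The part of these markers in the differences of SPS11 and the route genes, against WT or OE, was not tested.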

How the data were processed

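RNA of 18 flag leaf libraries was compared. The deposited table gives raw gene counts and FPKM per library, per the file headers. Per the submitters' processing notes, Bowtie 0.12.2 was used and the build is mm8, a mouse genome, although the table lists rice loci; the sources used here do not name the rice build, annotation or counting tool. FPKM scales the authors' counts by library total and gene length, and served for levels between genes and for the shares and sums of the synthases.

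Of 55986 loci 20437 passed filterByExpr on the 6 groups. A quasi-likelihood fit over all libraries (edgeR 4.0.16, TMM scaling, R 4.3.3) gave 11 two-sided contrasts, adjusted by Benjamini-Hochberg over all genes tested, with adjusted p under 0.05 as the threshold. CPM values are counts over TMM-scaled library sizes. Standard errors are the log2 fold change over the root of F, and 95% intervals use the t distribution of that fit. A prior count of 2 entered only the profile likeness. The tests were tried on simulated counts.

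The members and lists were chosen with earlier results of these data known. The lists, with genes tested, were cytosolic route to sucrose (15), sucrose cleavage (7), other sucrose transporters (3), leaf markers (4) and developing grain markers (6). Symbols come from these lists. A listed locus that the table describes as a pfkB kinase was left out as not an aldolase, and F2KP was kept after seeing that the table abbreviates its name. From each list up to 4 called genes with the largest change were named per comparison, or, with none called, up to 2 of the highest mean level; not every gene so chosen is printed, and others named were chosen after their values were seen. For each gene called in any comparison the 2 most alike genes with a mean of at least 1 CPM were named.

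Alternatives were leaving out each library, fitting only the groups compared, a threshold of 0.01, a block for replicate number, all loci without a filter on low counts, size factors by RLE, and DESeq2 1.42.0; those for lists outside the 10 genes were added after seeing the data. No pair of replicates agreed within sampling noise, the chi-square per degree of freedom being 7.81 or more.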

Additional observations from a re-analysis of the deposited data

Results flagged for a closer look

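In 4 genes near the set the effect of Ko1 differed between the stages by the edgeR test of the change itself, each time with a larger effect at 15DAF than at 5DAF. SPP1 changed by 3.13 on the log2 scale (edgeR adjusted p = 0.000225), from fitted Ko1 differences of 2.94 at 15DAF and -0.19 at 5DAF, and passed in all 12 leave-one-out fits. UGP1 changed by 1.28 (edgeR adjusted p = 0.0388) and cytosolic PGM by 1.04 (edgeR adjusted p = 0.0269), and each passed in 4 of 12 leave-one-out fits. AGPS2 changed by 1.12 (edgeR adjusted p = 0.00967), passed in all 12, and did not pass when only the groups compared were fitted (edgeR adjusted p = 0.0585).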

How the results depend on the processing

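No called result changed sign under any alternative. Of 168 fitted gene differences 29 changed sign under at least 1 alternative, each with an edgeR adjusted p of 0.575 or more when all libraries were used; SPS11 between stages in Ko1 (0.49) was -0.25 without Ko1 15DAF replicate 2. Over all of them, 1964 refits kept their side of the threshold, 175 lost the call and 21 gained it. For Ko1 against WT at 5DAF 0 of the 10 genes passed, 1 by DESeq2 and 0 to 3 without 1 library. For Ko1 against OE at 15DAF 1 passed, against 2 by DESeq2, with the replicate block and with only those groups; at 5DAF 2 passed, against 0 at adjusted p under 0.01, 1 with only those groups and 0 to 2 without 1 library. For 15DAF against 5DAF in WT 2 passed, against 5 by DESeq2, 4 with the replicate block, 4 with only those groups and 2 to 4 without 1 library. Of the route genes, 8 passed for Ko1 against OE at 15DAF, against 5 at adjusted p under 0.01 and 5 to 7 without 1 library; for the change of the Ko1 effect 3 passed, against 5 by DESeq2, 1 at adjusted p under 0.01, 1 with only those groups and 1 to 4 without 1 library. The SPS11 share in WT at 15DAF was 2.36% by CPM and 2.82% by FPKM. Replicate numbers did not pair libraries (median r of deviations 0.02 for equal numbers), and the block changed none of the other counts of the 10 genes by over 1.5 times. The share of all genes called for Ko1 against WT was 11% at 15DAF, 17.1% by DESeq2, 7.74% unfiltered and 4.08% without WT replicate 1; at 5DAF it was 0.0147%, 3.72% by DESeq2 and 14% without the library labelled WT replicate 3. The cause of these shifts was not tested. With 3 libraries per group and SPS11 CVs of 69.6% and 94.0% in Ko1, spread between libraries limits these comparisons.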
